A study of Mus musculus with 12 samples.

Results

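The 7 transcription factor genes Prdm1, Maf, Irf4, Gata3, Rora, Tbx21 and Bcl6 were followed across 4 groups of regulatory T cells (Tregs), CD4 T cells that depend on Foxp3 and hold immune responses in check. They were taken by gene symbol, as factors of effector Treg and T helper lineage states, and make up 7 of the 23361 genes listed. All 7 passed the filter on low values that left 10868 genes for testing. The cells came from mice in a model of autoimmune diabetes. They were wild type (Wt) or deficient in Lag3, an inhibitory receptor that binds MHC class II, and had been taken from the pancreatic islets or from non-draining lymph nodes (NDL). Each combination of genotype and tissue had 3 libraries, 12 in all. The sources used here do not give the mouse strain, the Lag3 allele, the sorting gate, the age of the animals or whether animals were pooled. They also do not say whether each library came from its own animal. The p-values therefore measure the spread between libraries, which may be technical.

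As background, Treg cells that enter inflamed tissue take on an effector program for which 3 of these factors are best known. Prdm1 encodes Blimp1, a repressor that acts with IRF4 in effector Tregs, where the pair drives Il10. Maf encodes c-Maf, a bZIP factor that also activates Il10 and is needed for follicular and gut Tregs, and Irf4 encodes a factor induced by T cell receptor signals that binds DNA with BATF and JUN at composite elements. The other 4 are known as masters of helper lineages that Tregs can borrow from. GATA3 directs type 2 cells and maintains Tregs in barrier tissue, RORα (Rora) acts in type 17 cells and is found in skin Tregs, T-bet (Tbx21) directs type 1 cells and gives Tregs the receptor Cxcr3, and BCL6 directs follicular cells. Blimp1 and BCL6 repress each other, and T-bet and GATA3 oppose each other.

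In the GENCODE annotation of GRCm38 all 7 are protein-coding genes. Prdm1 lies on chromosome 10 (44437177 to 44528501, minus strand), Maf on chromosome 8 (115682942 to 115707794, minus), Irf4 on chromosome 13 (30749226 to 30766976, plus) and Gata3 on chromosome 2 (9857078 to 9890034, minus). Rora lies on chromosome 9 (68653786 to 69388246, plus), Tbx21 on chromosome 11 (97098071 to 97115331, minus) and Bcl6 on chromosome 16 (23965052 to 23988852, minus). The RefSeq promoter windows of build GRCm38.p6 gave 7 windows for 6 of the genes, 2 of them for Bcl6. Each window of 300 bases (250 before a transcription start and 50 after) was searched on both strands for 8 motifs of factor families named here. The 250 bases before the start are shown for Prdm1 and Irf4, whose products act together, and for Bcl6, whose product opposes Blimp1, with motif matches in capitals. Each reads 5′ to 3′ on the strand of its gene, from chr10:44458749-44458998 (minus, inside the annotated Prdm1 span and outside its exons), chr13:30748983-30749232 (plus, its last bases inside the first exon that GENCODE draws), chr16:23988853-23989102 (minus) and chr16:23981284-23981533 (minus, in a Bcl6 intron of the longer transcript).
Prdm1: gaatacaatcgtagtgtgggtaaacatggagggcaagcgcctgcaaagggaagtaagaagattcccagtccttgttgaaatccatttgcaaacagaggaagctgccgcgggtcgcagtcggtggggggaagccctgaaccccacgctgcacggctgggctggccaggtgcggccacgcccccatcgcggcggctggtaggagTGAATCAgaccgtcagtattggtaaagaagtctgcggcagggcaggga
Irf4: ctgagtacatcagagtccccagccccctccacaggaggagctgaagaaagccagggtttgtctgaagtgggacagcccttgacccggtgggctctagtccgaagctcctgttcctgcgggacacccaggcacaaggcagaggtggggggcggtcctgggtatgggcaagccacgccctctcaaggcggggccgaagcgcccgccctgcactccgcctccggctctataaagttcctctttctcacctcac
Bcl6, first start: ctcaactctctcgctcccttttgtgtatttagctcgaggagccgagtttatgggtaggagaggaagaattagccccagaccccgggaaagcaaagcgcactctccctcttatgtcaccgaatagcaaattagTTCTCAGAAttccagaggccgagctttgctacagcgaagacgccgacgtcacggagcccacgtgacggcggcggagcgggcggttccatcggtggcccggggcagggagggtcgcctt
Bcl6, second start: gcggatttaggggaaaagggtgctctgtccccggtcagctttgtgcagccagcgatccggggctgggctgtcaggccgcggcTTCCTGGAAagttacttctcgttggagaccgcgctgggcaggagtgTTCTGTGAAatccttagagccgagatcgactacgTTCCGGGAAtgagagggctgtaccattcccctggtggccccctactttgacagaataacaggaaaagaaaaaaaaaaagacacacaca
The capitals mark 1 AP-1 site (TGANTCA) at -48 to -42 of the Prdm1 start, and the STAT element (TTCNNNGAA) once at -118 to -110 of the first Bcl6 start and 3 times before the second, at -168 to -160, -122 to -114 and -88 to -80. The AP-1 letters occur in 7.81% of 32851 promoter windows of 27025 genes, and the STAT letters in 8.3%, with 3 or more matches in 0.0335% (11 windows). The 3 matches stood out from a search of 8 motifs in 7 windows. Bases after the second Bcl6 start were not found in a GENCODE transcript of the gene, unlike those of the other windows. The MAF half-site TGCTGA was found before Gata3 (-90 to -85) and in 19.5% of all windows. No member window held the IRF element (in 3.44% of all windows), the ROR half-site AGGTCA (16.3%), the T-box letters TCACACC (3.98%) or the GATA letters AGATAA (11.2%) and TGATAA (9.05%). These are matches of letters, not measured binding.

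The values are counts that had been rescaled to nearly equal totals, between 15232498 and 15370098 a library, and levels are given in CPM (counts per M counts of the library), where 1 CPM is 15.2 to 15.4 rescaled counts. The depth before rescaling could be read for 2 libraries only, about 5.50 M reads for Lag3-deficient islet library 2 and 9.73 M reads for Wt NDL library 2. Columns were numbered 1, 2 and 1 in every group, and the repeated number is written 1a and 1b. Values of a group are listed in the order 1a, 2, 1b throughout. The 1b libraries held 1.26 to 1.68% of their counts in the ribosomal RNA gene Rn45s and the other 8 held 0.149 to 0.571%. Lag3 itself stood at 2.63, 3.12 and 7.85 CPM in Wt islets. Lag3-deficient islets had 0.0654, 0 and 0 CPM. In NDL both genotypes lay under 0.4 CPM, which cannot check the labels there. Foxp3, Cd3e, Cd4 and Il2ra were present in all 12 libraries, and 8 of 8 Treg and T cell markers could be tested. Foxp3 stood at 265 to 419 CPM in islets, at 623 to 799 CPM in NDL libraries 1a and 2, and at 395 (Wt) and 272 CPM (Lag3-deficient) in the NDL libraries 1b. Genes of pancreatic exocrine cells summed to 39.9 to 2996 CPM in islet libraries and to at most 5.22 CPM in NDL. In bulk RNA, more cells of a kind and more RNA in each cell cannot be told apart.

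**Figure D1:**
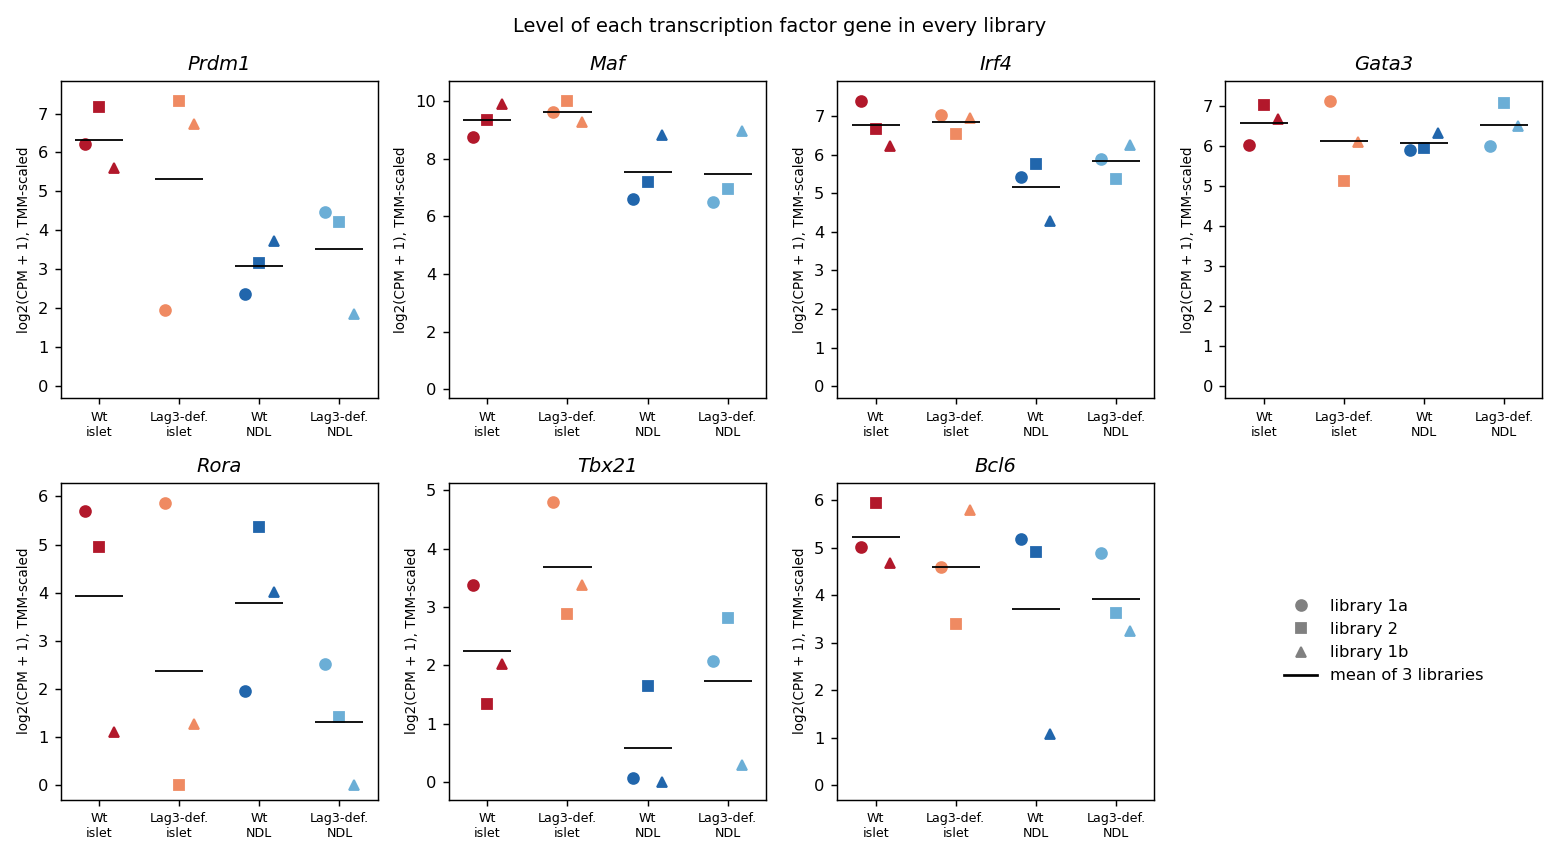
Level of each of the 7 genes in all 12 libraries as log2(CPM + 1) after TMM scaling (y axis, linear from 0), by group (x axis). Circles, squares and triangles are libraries 1a, 2 and 1b, and the black line is the mean of 3 libraries. The Irf4 islet libraries lie above the NDL libraries of the same genotype, the highest Maf NDL libraries are the triangles, and the Lag3-deficient islet circle for Prdm1 (2.55 CPM) lies with the NDL libraries.

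The first question was which factors differed between Tregs of the inflamed islets and Tregs of lymph nodes that do not drain them. Maf rose in islets, and it was the 1 member of the 7 past the threshold (an adjusted p under 0.05) when both genotypes were averaged. Over all genes tested, 1.22% passed it (112 higher and 21 lower in islets). Prdm1, Irf4 and Tbx21 had unadjusted p-values under 0.05 in the same direction and did not pass the adjustment. Bcl6, Rora and Gata3 did not pass either test. All 7 differences were positive, with a median of 1.30 on the log2 scale beside -0.03 over all genes. Of the 7, 4 were higher at an unadjusted p under 0.05, which 6.27% of all genes were.

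Maf was the most abundant of these transcripts in CPM. Islet Tregs held 443, 631 and 927 CPM when Wt and 702, 899 and 634 CPM when Lag3-deficient. NDL Tregs held 113, 144 and 408 CPM when Wt and 122, 136 and 421 CPM when Lag3-deficient. In CPM all 6 islet libraries lay above all 6 NDL libraries, by a narrow margin, since both NDL libraries numbered 1b stood well above the other 4. After TMM scaling these 2 (8.84 in Wt and 8.97 in Lag3-deficient cells on the log2 scale) passed Wt islet library 1a (8.76), so the tissues then overlapped. The same 2 libraries had the lowest Foxp3 levels among NDL, and the part of this in the Maf levels was not tested. Averaged over genotypes, the log2 difference on the log2(CPM + 1) scale was 1.98 ± 0.42 (SE; 95% interval 1.11 to 2.85; n = 6 and 6 libraries; limma, Benjamini-Hochberg adjusted p = 0.0197). In CPM, 1.17% of all genes had every islet library above every NDL library. The difference was 2.62 within libraries 1a and 2 and 0.69 within the 1b libraries, so its size moved with the column that also held more Rn45s RNA, and the part of that column in the result was not tested. Without any 1 of 6 libraries (Lag3-deficient islet 2, Wt islet 1b, and libraries 1a and 2 of both NDL groups) the adjusted p lay between 0.0504 and 0.0696, which misses the threshold, and the difference was 1.73 to 2.34 over all libraries left out in turn.

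Within each genotype the Maf difference was of like size. It was 1.80 ± 0.59 in Wt (limma, adjusted p = 0.341) and 2.15 ± 0.59 in Lag3-deficient cells (adjusted p = 0.181), and in neither did the groups overlap in CPM. No member passed the adjusted threshold within Wt, where 0.221% of all genes did, or within Lag3-deficient cells, where 0.175% did. Without Lag3-deficient NDL library 1b, the high one, the difference in Lag3-deficient cells was 2.90 with an adjusted p of 0.0278.

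Prdm1 showed the widest contrast of tissue means among the effector factors and the least even libraries. Wt Tregs held 74.7, 139 and 45.5 CPM in islets and 4.89, 8.0 and 11 CPM in NDL, with no overlap. Lag3-deficient Tregs held 2.55, 139.6 and 107 CPM in islets and 28.2, 19.3 and 2.22 CPM in NDL. The Lag3-deficient islet library 1a thus sat at the level of NDL, 54.7-fold under the highest library of its own group. The averaged log2 difference was 2.53 ± 0.88 (limma, unadjusted p = 0.00923, adjusted p = 0.221). It was 3.24 ± 1.24 in Wt (adjusted p = 0.483) and 1.82 ± 1.24 in Lag3-deficient cells (adjusted p = 0.679). Without Lag3-deficient islet library 1a the averaged difference was 3.37 with an adjusted p of 0.0229, so 1 library decided this call.

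Prdm1 and Irf4 are also high in plasma cells, and markers of these moved with tissue. The 8 listed plasma cell genes summed to 199 to 1058 CPM in Lag3-deficient islets and 284 to 586 CPM in Wt islets, against 73.2 to 201 and 94.7 to 131 CPM in the NDL groups. Of the 6 that could be tested, 2 rose in islets, Igj (the J chain of secreted antibodies, 74.8 to 617 CPM in islets and at most 4.19 CPM in NDL) and Mzb1, an endoplasmic reticulum protein of antibody-secreting cells. The defining marker Sdc1 stayed at or under 4.39 CPM in every library. Tnfrsf17 was 35.3 CPM in Lag3-deficient islet library 1a, the library where Prdm1 was lowest, 3.68 CPM in Wt islet library 1a and at most 0.131 CPM elsewhere. The part of these cells in the Prdm1 and Irf4 levels was not tested.

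Irf4 was the most even of the 7, with a residual SD of 0.55 on the log2 scale, smaller than for all but 10.4% of genes tested (the median gene had 1.24). Its islet levels were 169.5, 97.6 and 70.8 CPM for Wt and 116, 80.6 and 125 CPM for Lag3-deficient cells. Its NDL levels were 49.7, 52.7 and 16.5 CPM for Wt and 78.2, 44.4 and 63 CPM for Lag3-deficient cells. Islet and NDL libraries did not overlap within either genotype, and over both genotypes the highest NDL library passed the lowest islet library. The averaged log2 difference was 1.30 ± 0.43 (limma, unadjusted p = 0.00659, adjusted p = 0.192), and it was 1.29 within libraries 1a and 2 and 1.32 within the 1b libraries. By genotype it was 1.60 ± 0.61 in Wt (adjusted p = 0.475) and 1.00 ± 0.61 in Lag3-deficient cells (adjusted p = 0.629). In Wt, 3 of the 7 genes (Prdm1, Maf and Irf4) had islet libraries wholly above NDL in CPM, as 7.2% of all genes did. In Lag3-deficient cells 2 of them (Maf and Irf4) had, as did 4.54% of all genes.

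Macrophages are another source of Maf transcripts. The 14 myeloid genes found in the table summed to 69.2 to 192 CPM in Lag3-deficient islets and 114 to 228 CPM in Wt islets, against at most 38.8 CPM in NDL. Only 5 of them could be tested, all with positive differences (median 1.48), and 1 rose in islets, Cybb, the membrane subunit of the phagocyte oxidase (32.0 to 150.1 CPM in islets and at most 5.37 CPM in NDL). Cybb alone gave 32.0, 150.1 and 129 CPM of sums of 69.2, 192 and 143 CPM in Lag3-deficient islets. In Wt islets it gave 66.1, 73.0 and 142 CPM of 204, 114 and 228 CPM. Other myeloid genes were unevenly present in islets, with Lyz2 up to 94.5 CPM, Cd68 up to 38.2, Tyrobp up to 17.6, C1qb up to 22.7 and Fcgr3 up to 8.31 CPM, and Itgam was at most 0.916 CPM in any library. Wt islet library 1b, with the highest Maf level (927 CPM), had the highest myeloid sum and held Csf1r at 30.0 CPM (at most 2.95 CPM elsewhere), C1qb at 22.7 CPM and Mrc1 at 3.67 CPM. The NDL libraries numbered 1b, the highest in Maf among NDL, had myeloid sums of 0.588 CPM in Wt and 0.457 CPM in Lag3-deficient cells. The part of such cells in the Maf levels was not tested.

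Among the helper lineage factors, Tbx21 was low everywhere and its levels leaned to the islets. Islet cells showed 9.52, 1.50 and 2.95 CPM when Wt and 23.7, 5.61 and 9.56 CPM when Lag3-deficient. NDL cells showed 0.0652, 2.15 and 0 CPM when Wt and 4.32, 6.64 and 0.196 CPM when Lag3-deficient. In CPM the tissues overlapped in both genotypes. After TMM scaling those of Lag3-deficient cells did not, by a narrow margin (lowest islet library 2.89 and highest NDL library 2.81 on the log2 scale). The averaged log2 difference was 1.81 ± 0.82 (limma, unadjusted p = 0.0397, adjusted p = 0.39). CD8 and NK cell markers, of cells that also use T-bet, summed to 1.17 to 23.7 CPM over all 12 libraries, with 0 of 4 tested past the threshold.

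Gata3, the type 2 factor, averaged 84.7 ± 37.1 CPM in islets and 84.5 ± 31.5 CPM in NDL (SD, n = 6 and 6). Wt cells held 65.3, 125 and 97.1 CPM in islets and 69.7, 61.0 and 70.3 CPM in NDL. Lag3-deficient cells held 123, 29.5 and 68.9 CPM in islets and 84.3, 147 and 74.9 CPM in NDL, so the tissues overlapped in both genotypes. The averaged tissue difference was 0.05 ± 0.43 with a 95% interval of -0.85 to 0.95 (limma, adjusted p = 0.978), which does not reach a 2-fold change in either direction. This average joins values of opposite sign, 0.51 ± 0.61 in Wt and -0.41 ± 0.61 in Lag3-deficient cells. Their intervals (-0.76 to 1.78 and -1.68 to 0.86) each reach past a 2-fold change, so the limit holds for the average only. The Wt NDL libraries lay close together, at 67 ± 5.17 CPM (mean ± SD, n = 3).

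Rora, Prdm1 and Bcl6 had the largest residual SDs of the 7, at 2.25, 1.72 and 1.40 on the log2 scale. For Bcl6, Wt islets gave 32.0, 59.2 and 23.5 CPM and Lag3-deficient islets 20.7, 8.35 and 55.2 CPM. Wt NDL gave 41.8, 28.8 and 0.980 CPM and Lag3-deficient NDL 38.5, 12.6 and 7.18 CPM. Wt NDL library 1b lay 42.7-fold under the highest of its group. Its averaged tissue difference was 1.08 ± 0.83 (limma, adjusted p = 0.655), 0.09 within libraries 1a and 2 and 3.06 within 1b.

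For Rora, Wt islets gave 52.1, 29.4 and 1.11 CPM and Lag3-deficient islets 51.3, 0 and 1.44 CPM. Wt NDL gave 3.39, 40.4 and 13.5 CPM and Lag3-deficient NDL 6.35, 1.82 and 0 CPM. High and low libraries occurred in 3 of the 4 groups, and only the Lag3-deficient NDL group was low throughout. Its residual SD was larger than that of 95.9% of genes tested. The averaged tissue difference was 0.61 ± 1.17 (limma, adjusted p = 0.885), 1.32 within libraries 1a and 2 and -0.82 within 1b.

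**Figure D2:**
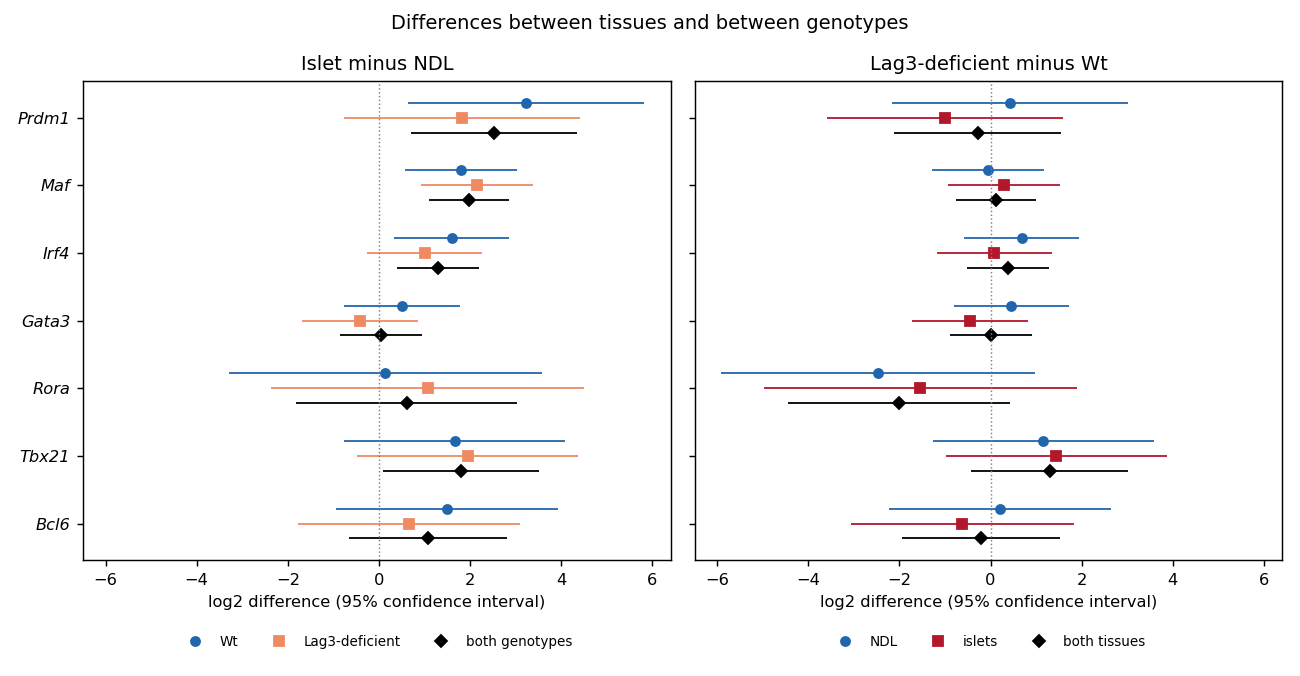
Log2 difference of each gene with its 95% confidence interval (x axis) between islets and NDL (left) and between Lag3-deficient and Wt cells (right). Circles and squares are single strata and diamonds the average over both, from 1 limma fit of 12 libraries. The averaged intervals of Prdm1, Maf, Irf4 and Tbx21 lie above 0 on the left before adjustment over all genes, and every interval on the right spans 0.

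The second question was whether loss of Lag3 altered these factors. No member passed the threshold in islets, in NDL or averaged over tissues, and 0% of all genes did in any of these comparisons (limma). At an unadjusted p under 0.05 there were 0 members in each, beside 597, 314 and 400 genes (5.49%, 2.89% and 3.68%). In islets the log2 differences, Lag3-deficient minus Wt, were -0.99 ± 1.24 for Prdm1, 0.30 ± 0.59 for Maf, 0.08 ± 0.61 for Irf4 and -0.46 ± 0.61 for Gata3. For Rora it was -1.54 ± 1.65, for Tbx21 1.44 ± 1.16 and for Bcl6 -0.62 ± 1.17 (adjusted p 0.973 to 0.999). The intervals were narrowest for Maf (-0.94 to 1.53) and Irf4 (-1.18 to 1.35) and widest for Rora (-4.98 to 1.90), so differences of 2-fold were within reach of every one of them. The Prdm1 value in islets was -2.05 within libraries 1a and 2 and 1.12 within 1b.

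In NDL the differences were 0.42 ± 1.24 for Prdm1, -0.05 ± 0.59 for Maf, 0.68 ± 0.61 for Irf4, 0.46 ± 0.61 for Gata3, -2.47 ± 1.65 for Rora, 1.15 ± 1.16 for Tbx21 and 0.21 ± 1.17 for Bcl6 (adjusted p = 1 for all 7). Gata3 was the 1 member whose Lag3-deficient NDL libraries all lay above the Wt ones in CPM, which 4.69% of all genes did. After TMM scaling they overlapped. Rora had the most negative value of the 7 in both tissues, and averaged over tissues it was -2.01 ± 1.17 (limma, unadjusted p = 0.101). Tbx21 had the most positive value in both tissues, with an average of 1.30 ± 0.82 (unadjusted p = 0.131). Neither met the threshold even before adjustment.

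The genotype effects in the 2 tissues were also set against each other. The differences between them lay from -1.42 ± 1.75 for Prdm1 to 0.93 ± 2.33 for Rora on the log2 scale, with 0.35 ± 0.84 for Maf and -0.60 ± 0.86 for Irf4 (limma, adjusted p = 0.998 for all 7). No gene of the table passed the threshold (0%), and 444 (4.09%) had an unadjusted p under 0.05, with 0 members among them.

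Levels of different genes were compared per kb of exon, since long transcripts collect more reads. Maf was first in every group, at 80.9 ± 29.6 CPM per kb in Wt islets, 90.4 ± 16.7 in Lag3-deficient islets, 26.9 ± 19.7 in Wt NDL and 27.5 ± 20.4 in Lag3-deficient NDL (mean ± SD, n = 3). In islets its libraries lay above those of every other member, and in NDL they overlapped with Gata3 (16.8 CPM per kb in Wt and 25.7 in Lag3-deficient cells). In Lag3-deficient NDL they also overlapped with Irf4 (lowest Maf library 14.8 and highest Irf4 library 16.0 CPM per kb). Irf4 and Gata3 followed in islets at 23.0 and 24.1 CPM per kb in Wt and 21.8 and 18.5 in Lag3-deficient cells, and their libraries overlapped. In NDL the Gata3 libraries lay above the Irf4 libraries in both genotypes, where Irf4 averaged 8.09 CPM per kb in Wt and 12.6 in Lag3-deficient cells. Prdm1 came next in islets (15.5 CPM per kb in Wt and 14.9 in Lag3-deficient cells), and its NDL group means were no more than 2.97. Bcl6 means lay between 2.90 and 5.71 CPM per kb in the 4 groups. Rora and Tbx21 means were at or below 5.21 CPM per kb in every group, with the lowest mean for Rora in Lag3-deficient NDL (0.208).

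**Figure D3:**
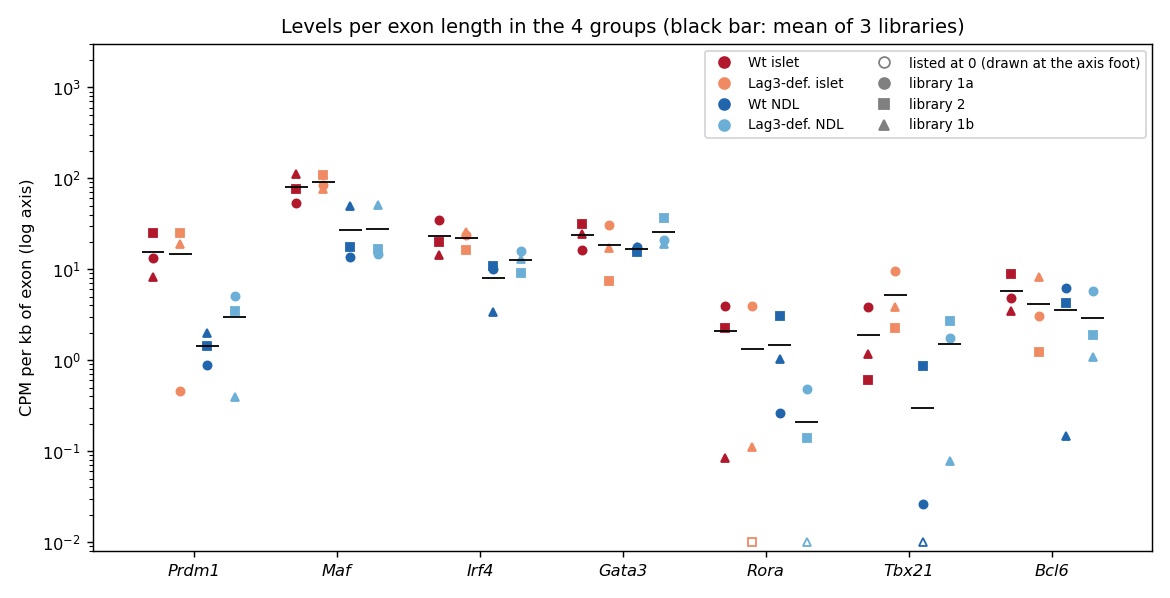
Level per exon length, in CPM per kb (log axis), of the 7 genes in the 4 groups. Each symbol is 1 library (circle 1a, square 2, triangle 1b), bars are means of 3, and open symbols are values of 0 drawn at the foot of the axis. Maf heads every group with means of 26.9 to 90.4, and Rora and Tbx21 reach down to 0.

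The balance within pairs of opposing factors was taken library by library as a difference of log2(CPM + 1) levels. Prdm1 over Bcl6 was 1.20, 1.22 and 0.93 in Wt islets (mean 1.11 ± 0.16 SD). It was -2.65, 3.93 and 0.94 in Lag3-deficient islets, -2.82, -1.72 and 2.67 in Wt NDL and -0.43, 0.58 and -1.39 in Lag3-deficient NDL. The Wt islet group was alone in holding all 3 libraries on the Prdm1 side, and the other groups had values of both signs. The Lag3-deficient islet and Wt NDL values spanned those of Wt islets, while all 3 Lag3-deficient NDL libraries lay under them.

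Gata3 over Tbx21 was positive in all 12 libraries. It was 2.33, 2.23 and 2.72 in Lag3-deficient islets (2.43 ± 0.26) and 2.65, 5.67 and 4.65 in Wt islets (4.32 ± 1.53), where 1 Wt library lay inside the Lag3-deficient range. In NDL it was 5.83, 4.30 and 6.32 in Wt (5.48 ± 1.05) and 3.92, 4.26 and 6.19 in Lag3-deficient cells (4.79 ± 1.22). In Lag3-deficient cells every islet library lay under every NDL library for this pair. Tbx21 stood at 0 to 6.64 CPM in NDL, so the 1 CPM added before taking logs weighs on these values. These balances are descriptions, and were not tested.

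**Figure D4:**
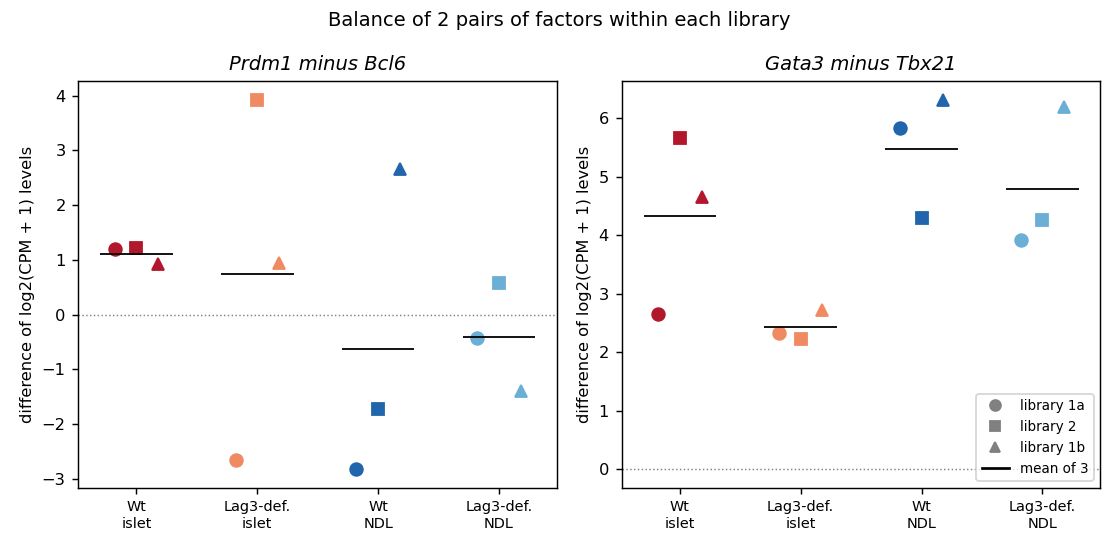
Prdm1 minus Bcl6 (left) and Gata3 minus Tbx21 (right) in each library, as differences of log2(CPM + 1) levels (y axis) by group (x axis). Symbols are libraries 1a, 2 and 1b and black lines are means of 3. Prdm1 minus Bcl6 is tight in Wt islets (0.93 to 1.22) and spans 0 in the other groups, and Gata3 minus Tbx21 is positive everywhere and lowest in Lag3-deficient islets (2.23 to 2.72).

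Genes whose profile over the 12 libraries came closest to each member were found by the mean absolute difference of centred log2 levels, among about 5380 genes of sufficient level. For Maf, whose own mean absolute deviation was 1.12, they were Top2a (a DNA topoisomerase of dividing cells, 0.426), Pdcd1 (the inhibitory receptor PD-1, 0.465) and S100a4 (0.470). For Irf4 (0.668) they were Twsg1 (0.343), Arih1 (0.344) and Psmd11 (0.347), and for Prdm1 (1.70) Sept11 (0.860), Dgat1 (0.901) and Yars (0.906). For Bcl6 (1.02) the first was Nfatc1, a factor of T cell receptor signalling (0.421), before Synj1 (0.495) and Tbc1d4 (0.593). Gata3 (0.467) came closest to Snrnp40 (0.228), Polr1c (0.271) and Glrx3 (0.286). For Rora (1.95) the closest was Phlpp1 at 1.04, and for Tbx21 (1.16) Tubgcp5 at 0.651. All values share the same 12 libraries and their scaling, and carry no test.

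Genes associated with the effector factors were higher in islets where they passed the threshold. Of 20 genes associated with Blimp1, IRF4 and c-Maf, all were tested, 18 had positive averaged differences, 6 rose and none fell, with a median of 1.26. This list was chosen with earlier results of these data known, so its counts are a description. Over all genes tested, 48.4% were positive, 1.22% passed (112 of the 133 higher in islets) and the median was -0.03. In CPM, 6 of the 20 had every islet library above every NDL library. Il2ra, which did not pass, had every islet library (at most 380 CPM) under every NDL library (at least 403 CPM). Of the 10868 genes tested, 127 lay wholly above in this way and 78 wholly under. Il10, the suppressive cytokine, went from 1.39 ± 3.38 CPM in NDL to 139.7 ± 69.6 CPM in islets (mean ± SD, n = 6 and 6), a log2 difference of 6.49 ± 0.86 (limma, adjusted p = 0.000266). Ctla4, the checkpoint receptor of Tregs, went from 404 ± 107 to 2300.2 ± 353 CPM (2.68 ± 0.22, adjusted p = 4.32e-07). The inhibitory receptor Tigit (3.93 ± 0.91), the epidermal growth factor family ligand Areg (5.09 ± 0.91), the suppressive mediator Fgl2 (4.31 ± 0.85) and the galectin Lgals1 (1.17 ± 0.26) also rose (adjusted p 0.00602 to 0.0371). Il10 and Ctla4 passed in each genotype as well, with Il10 at 5.99 in Wt and 6.99 in Lag3-deficient cells.

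The lists of the helper lineage factors were counted in the same way. Of 11 tested T-bet associated genes (13 listed), 7 were positive and 2 rose in islets, the chemokine Ccl5 (4.08 ± 0.59, adjusted p = 0.000646) and the chemokine receptor Cxcr3 of type 1 responses (3.89 ± 0.91, adjusted p = 0.0381). Of 8 tested GATA3 associated genes (12 listed), 6 were positive and 2 rose, Areg and Il10, which the effector list also holds. None of 5 tested ROR associated genes (11 listed) passed, 3 were positive (median 0.60), and Ahr stood at 2.01 ± 0.95 (adjusted p = 0.414). None of 12 tested BCL6 associated genes (16 listed) passed either. Of these 6 were positive, the median was -0.04 and 1 gene had every islet library under every NDL library in CPM, as 78 of all 10868 genes tested had. The smallest p-values were those of the follicular receptor Cxcr5, at 2.57 ± 0.70, and Pdcd1, at 1.75 ± 0.46 (adjusted p 0.09 and 0.0724). The 10 listed B cell genes summed to 59.6 to 235 CPM in Wt islets and 7.53 to 264 CPM in Lag3-deficient islets. They summed to at most 114 CPM in Wt NDL and 109 CPM in Lag3-deficient NDL. Of 7 tested, 5 had positive averaged differences (median 0.81) and none passed the threshold. The part of B cells in the Cxcr5, Bcl6, Prdm1 and Irf4 levels was not tested.

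Among 40 tested T cell transcription factors outside the 7 (44 listed), 21 were positive and 5 rose in islets. Nfil3, a bZIP repressor induced by cytokines, went from 6.47 ± 8.67 CPM in NDL to 141 ± 89.9 CPM (4.97 ± 0.81, limma, adjusted p = 0.00275). Id2, an inhibitor of E proteins in effector cells, rose by 1.99 ± 0.37, the hypoxia factor Hif1a by 1.61 ± 0.30, Nr4a1, an immediate response to T cell receptor signals, by 2.30 ± 0.52 and Irf8 by 2.41 ± 0.59 (adjusted p 0.00736 to 0.0499). The part of myeloid cells and B cells, whose marker sums are given above, in the Irf8 level was not tested. Bach2, which restrains effector genes and competes for AP-1 sites, was the 1 that fell, from 133 ± 65.0 to 13.5 ± 11.8 CPM (-3.17 ± 0.59, adjusted p = 0.00798). Averaged over genotypes, Maf was thus 1 of 7 members called where 6 of these 40 factors were, and the lists were not tested against each other.

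Between genotypes no gene of any of these lists passed. In islets the smallest p-values were those of Slamf6, a receptor of follicular and other T cells (123 ± 26.3 CPM in Lag3-deficient and 35.5 ± 15.1 CPM in Wt islets, 1.91 ± 0.63, adjusted p = 0.863), and Ikzf4, a partner of Foxp3 (51.1 ± 38.9 and 6.38 ± 1.42 CPM, 2.36 ± 1.05, adjusted p = 0.884). In NDL Ikzf3 stood at -1.85 ± 0.81 (adjusted p = 1).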

How the data were processed

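RNA of 12 libraries was measured by sequencing, 3 for each of 4 groups, taken from sample titles. Per the submitters' processing notes, TopHat2, DESeq2 and mm10 were used, without versions or roles. The deposited tables hold a signal per gene. In the first these are whole numbers whose totals are nearly equal, taken as rescaled counts. Values skipped at regular steps were found only in Lag3-deficient islet library 2 and Wt NDL library 2. The second deposited table (10317 genes) holds a normalized signal, used as an alternative. A count test was not fitted, since these are not raw counts, and intervals for counting error cannot be given.

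Values were taken as log2(CPM + 1) with TMM scaling (30% of ratios and 5% of levels trimmed) over the 10868 genes, of 21708 above 0, that reached 10 rescaled counts in 3 or more libraries. Fold changes on this scale understate changes of low genes. One limma 3.58.1 model (R 4.3.3; mean-variance trend, 4 group means, 8 residual degrees of freedom) gave all comparisons, with Benjamini-Hochberg adjustment over all genes tested and a threshold of 0.05; the same code was tested on simulated data. Libraries of a group correlated at 0.661 to 0.882 (Spearman). Columns could be assigned to groups but not, for repeated numbers, to single samples.

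The genes named were the 7 members, list genes past the threshold or, where none passed, 2 with the smallest p, and 3 closest profiles per member among genes with a mean log2 level of at least 4. In the genotype comparisons, and for the closest profiles of Rora and Tbx21, not all of these are printed, and 1 list gene is not reported here. The members, gene lists and motifs were chosen with earlier results of these data known. Alternatives were other scaling, pseudocounts, filters, tables, weights, samples in the model, a replicate block and left-out libraries.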

Additional observations from a re-analysis of the deposited data

How the results depend on the processing

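The Maf rise in islets averaged over genotypes kept its direction in every alternative run, with log2 differences of 1.73 to 2.63 and adjusted p of 0.00129 to 0.207. It missed the threshold with no filter (1.98, adjusted p = 0.207), without the 2 libraries that had been scaled up (1.77, adjusted p = 0.119), and without any 1 of the 6 libraries named in the results, so 0 members were then called. Without the repeated-number columns 1 member was called in Lag3-deficient cells, Maf at 3.12.

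Counts of genes called moved more. Islet against NDL in Wt gave 24 genes, and 11 with no filter, 57 with voom weights, 12 with only the groups compared, 10 without the repeated-number columns, 14 without the scaled-up libraries and 9 to 30 with each library left out. In Lag3-deficient cells it gave 19 genes, and 10 with no filter, 34 with at least 50 rescaled counts, 31 in the second table, 8 with only the groups compared, 32 without the repeated-number columns, 11 without the scaled-up libraries and 11 to 38 with each library left out, when 0 to 1 member was called. Averaged over genotypes it gave 133 genes, and 50 with no filter, 55 without the repeated-number columns, 65 without the scaled-up libraries and 71 to 122 with each library left out, when 0 to 2 members were called. Leaving out libraries gave 0 to 5 genes between genotypes in islets. The cause was not tested, beyond the fewer samples or other genes that these alternatives use.

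Whether column numbers pair libraries is not known, and the main model did not pair them. Same-numbered libraries of different groups deviated together with r of -0.0894 to 0.161 over 18 pairs (2 over 0.1). Their median r was 0.0253, beside -0.0072 for pairs with different numbers. In all, 9 of 12 libraries correlated best with their own number. In each other group 3 libraries could match, a single one of them with the same number. With the replicate block, 15 genes were called in Wt, 26 in Lag3-deficient cells and 124 averaged over genotypes, and Maf had an adjusted p of 0.00661.

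Uncalled differences changed sign as follows; none was past the threshold. Between genotypes in islets, Irf4 was -0.00413 with no scaling factor, -0.033 in the second table, -0.16 without the repeated-number columns and -0.087 with TMM over all genes, and Gata3 was 0.023 without the scaled-up libraries. In NDL, Maf was 0.025 with no scaling factor, and Bcl6 -0.050 with a pseudocount of 5 and -0.77 without the repeated-number columns. Averaged over tissues, Gata3 was -0.00305 with no scaling factor, -0.000799 with a pseudocount of 0.5, -0.00273 with voom weights and -0.086 with TMM over all genes. There Prdm1 was 0.073 in the second table, Irf4 -0.059 without the repeated-number columns, and Maf -0.057 and Bcl6 0.39 without the scaled-up libraries. Islet against NDL, Bcl6 was -0.22 in Lag3-deficient cells without the repeated-number columns, and Gata3 0.043 there without the scaled-up libraries and, averaged, -0.079 with no scaling factor and -0.029 in the second table. For the difference of genotype effects, Tbx21 was -1.54 with voom weights, and Rora -0.69 and Tbx21 -0.046 without the repeated-number columns. TMM over all genes and leaving out the scaled-up libraries were chosen after seeing the data. Of 588 values with a library left out, 42 changed sign, all of differences not past the threshold, with these ranges. Between genotypes in islets, Prdm1 ran from -2.00 to 0.73, Gata3 from -0.93 to 0.025 and Irf4 from -0.16 to 0.40. In NDL, Prdm1 ran from -0.038 to 1.25, Maf from -0.80 to 0.61 and Bcl6 from -1.10 to 0.95. Averaged over tissues, Prdm1 ran from -0.78 to 0.58, Gata3 from -0.23 to 0.25, Bcl6 from -0.86 to 0.18 and Maf from -0.24 to 0.46. Between tissues in Wt, Rora ran from -0.79 to 1.53. In Lag3-deficient cells, Rora ran from -0.68 to 2.25 and Gata3 from -0.91 to 0.044. Averaged over genotypes, Gata3 ran from -0.21 to 0.27 and Rora from -0.28 to 1.29. For the difference of genotype effects, Prdm1 ran from -2.44 to 0.29, Rora from -0.81 to 2.12, Tbx21 from -0.43 to 0.85, Maf from -0.30 to 1.11 and Bcl6 from -1.53 to 0.50. Depth before rescaling is unknown for 10 libraries.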
